A study of Mus musculus with 12 samples.

Results

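Adrenergic receptors are the cell-surface proteins through which noradrenaline, released by sympathetic nerves, and adrenaline act on their target cells. The 8 receptor genes described here are Adrb1 and Adrb3 of the beta class, Adra1a, Adra1b and Adra1d of the alpha-1 class, and Adra2a, Adra2b and Adra2c of the alpha-2 class. They were picked by gene symbol, and not by their values, from the 24197 genes of a count table of mouse brown adipose tissue (BAT), the fat depot that burns lipid to make heat. All 8 were in the table and passed the filter on low counts, which left 15265 genes.

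In brown adipocytes, noradrenaline acts mainly through beta receptors. These couple to the stimulatory G protein Gs and raise cyclic AMP, which activates protein kinase A, lipolysis and transcription of Ucp1, the uncoupling protein of heat production. Alpha-2 receptors couple to the inhibitory G protein Gi and lower cyclic AMP, and alpha-1 receptors couple to Gq, which activates phospholipase C and raises calcium. Adrb3 is the beta receptor typical of mouse adipocytes, whereas alpha receptors are also known from vascular smooth muscle and nerve endings.

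BAT from mice aged 8 to 10 weeks was profiled in 12 RNA-seq libraries, 3 in each of 4 groups. The groups were mutants kept for 1 week at 4 °C, controls kept for 1 week at 4 °C, mutants at room temperature (RT) and controls at RT. All mice carried floxed Ebf2 alleles (Ebf2 fl/fl). Mutants also carried Adipoq-Cre (Adipoq-Cre+), a recombinase under the adiponectin promoter that acts in adipocytes and so leaves Ebf2 intact in other cell types, and controls did not carry it (Adipoq-Cre-). Ebf2 is a transcription factor of brown adipocyte identity. Nothing in the labels ties replicates to separate animals, and the p-values therefore reflect library-to-library spread alone, which may be technical.

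Libraries held 25835650 to 37927038 counts, and 3 counts corresponded to 0.0763 to 0.114 CPM, the count scaled to the effective library size. Ebf2 averaged 25.8 ± 3.73 CPM in mutant cold and 45.4 ± 6.03 CPM in control cold libraries (SD, n = 3 each). The log2 fold change was -0.82 ± 0.25 (SE, edgeR adjusted p = 0.153). These groups did not overlap (21.6 to 28.7 against 41.6 to 52.3 CPM), and limma-voom called Ebf2 lower (-0.75, adjusted p = 0.0492). At RT, Ebf2 averaged 49.7 ± 13.9 CPM in mutant and 47.8 ± 16.0 CPM in control libraries (0.06 ± 0.25, adjusted p = 0.931). The transcript level thus did not separate the RT libraries by genotype, and "mutant" below means a library labelled mutant; whether the counted exons lie outside the deleted part is not given in the sources used here. All 11 adipocyte markers were detected in every library. The summed level of 14 skeletal muscle markers ranged from 0.00554% to 2.69% of counts. Of these, Ckm, Myh1, Myh2, Myh4 and Pvalb were at 0 in at least 1 library, and the 4 libraries with the largest share, called muscle-rich below, were mutant RT replicate 3 (1.98%), control cold replicate 3 (0.915%), and control RT replicates 1 and 3 (2.69% and 1.95%). The next highest share was 0.636%, in mutant cold replicate 3, so the 4 were a ranked choice and not a separate class. Without these 4 libraries the control RT group is replicate 2 alone, and its spread is assumed to be that of the other groups.

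The longest runs of coding sequence shared by 2 pairs of the more abundant receptors, the beta pair and Adra1a with Adra1d, are shown. Whether reads of those genes were confused there was not tested. Sequences are the messenger strand from the GENCODE M21 annotation of GRCm38, in windows of 72 bases, and capitals mark the longest run that the pair shares. Positions count from the first base of the start codon.
Adrb3 (chromosome 8, coding bases 880 to 951): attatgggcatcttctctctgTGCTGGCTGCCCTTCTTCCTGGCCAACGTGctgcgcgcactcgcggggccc
Adrb1 (chromosome 19, coding bases 952 to 1023): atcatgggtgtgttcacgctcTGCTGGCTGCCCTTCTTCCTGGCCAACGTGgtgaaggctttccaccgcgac
Adra1a (chromosome 14, coding bases 752 to 823): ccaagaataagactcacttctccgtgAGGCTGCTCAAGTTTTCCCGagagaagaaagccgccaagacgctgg
Adra1d (chromosome 2, coding bases 962 to 1033): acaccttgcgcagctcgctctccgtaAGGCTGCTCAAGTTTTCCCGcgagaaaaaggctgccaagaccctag
The 2 beta receptors shared a run of 30 bases, with 52 of 72 window positions identical, and Adra1a and Adra1d a run of 20 bases, with 50 of 72 identical. Over all 28 pairs of members, 19 shared a coding run of 12 or more bases and 9 did not. Among the low receptors the runs reached 26 bases (Adra2a and Adra2c) and 23 bases (Adra2b and Adra2c), and Adra1b shared 20 bases with Adra1d. Over whole transcripts 2 pairs stayed below 12 bases. Read length is not given in the sources used here. The remaining members lie on chromosome 11 (Adra1b), chromosome 19 (Adra2a), chromosome 2 (Adra2b) and chromosome 5 (Adra2c).

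Adrb3 was the most abundant of these receptor transcripts in every group. Levels of different genes are compared here as CPM per kilobase of annotated exon (RPKM). Adrb3 averaged 112.6 ± 22.3 RPKM in mutant cold, 106.4 ± 13.4 in control cold, 133.7 ± 44.4 in mutant RT and 50.4 ± 15.8 in control RT libraries (SD, n = 3 each), and its range did not overlap that of the next receptor in any group. Adra1a, Adra1d and Adrb1 formed a middle tier, with group means between 4.76 and 11.4 RPKM. Within it, neighbours in the order overlapped in every group except mutant RT, where Adrb1 (7.93 ± 2.6 RPKM) lay above Adra1a (4.76 ± 0.265 RPKM) without overlap. The lowest tier was Adra1b, Adra2a, Adra2b and Adra2c, with group means of 0.0389 to 0.215 RPKM. The order within the middle tier depends on exon lengths: Adra1d is annotated with 1899 exonic bases, of which 1686 are coding, while the exon union of Adra1a spans 8728 bases and its longest transcript 4282. Adrb3 shares 839 exonic bases with the antisense gene Gm45470 and Adra1d 147 with Gm14285. Neither antisense gene is in the count table and the strand setting is not given in the sources used here, so their reads cannot be told apart from those of the receptors.

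**Figure D1:**
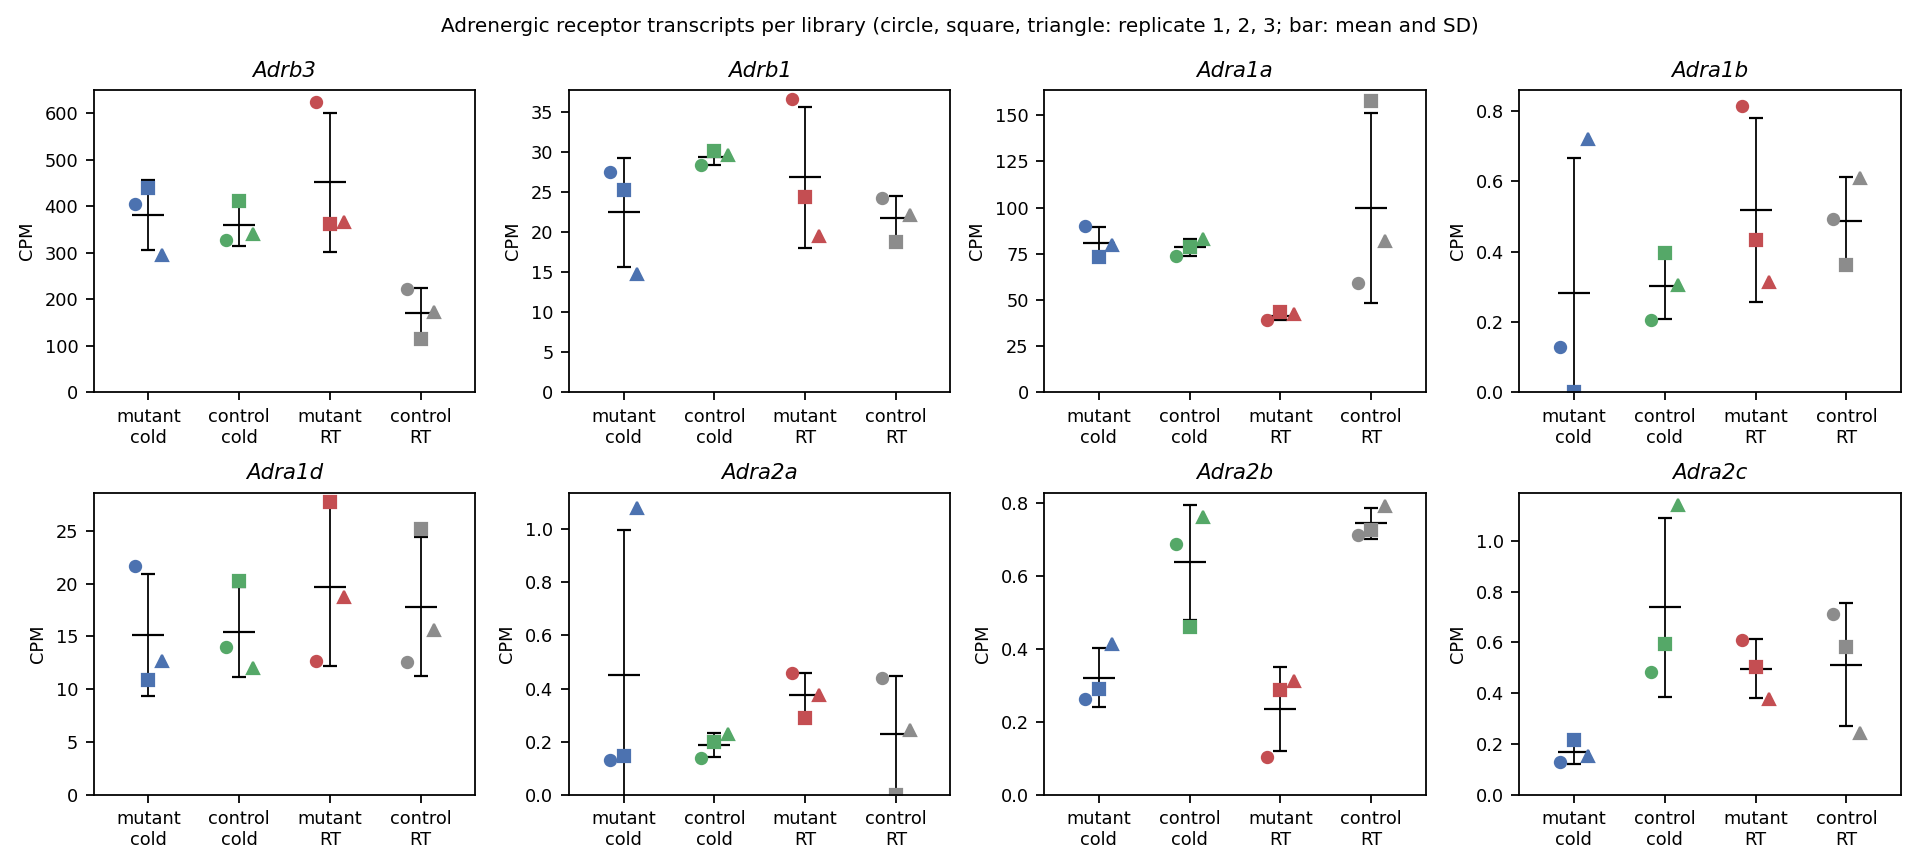
CPM of each of the 8 receptor genes in the 12 libraries (circle, square and triangle for replicates 1, 2 and 3), with group means and SD bars (n = 3), groups running from mutant cold to control RT; bars that would pass below 0 stop at 0, for Adra1b and Adra2a in mutant cold. Adrb3 at RT lies higher in all 3 mutant libraries than in all 3 control libraries, and Adra1a lower.

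As a share of the summed RPKM of the 8 genes, Adrb3 made up 80.0%, 85.7% and 80.9% in the mutant cold libraries, against 79.7%, 80.7% and 80.0% in the control cold libraries. At RT it made up 89.2%, 79.8% and 83.9% in mutant libraries, against 75.6%, 47.8% and 67.4% in control libraries. The cold groups and the mutant RT group thus lay close together, and every control RT library lay below all 9 others. The summed level itself averaged 157.2 ± 43.7 RPKM in mutant RT and 78.1 ± 8.03 in control RT libraries, and 136.8 ± 24.6 in mutant cold and 132.7 ± 15.7 in control cold libraries (SD, n = 3 each). The share is a description and carries no test. With the longest transcript as gene length, mean shares were 79.4% in mutant cold, 77.6% in control cold, 83.7% in mutant RT and 59.6% in control RT libraries.

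**Figure D2:**
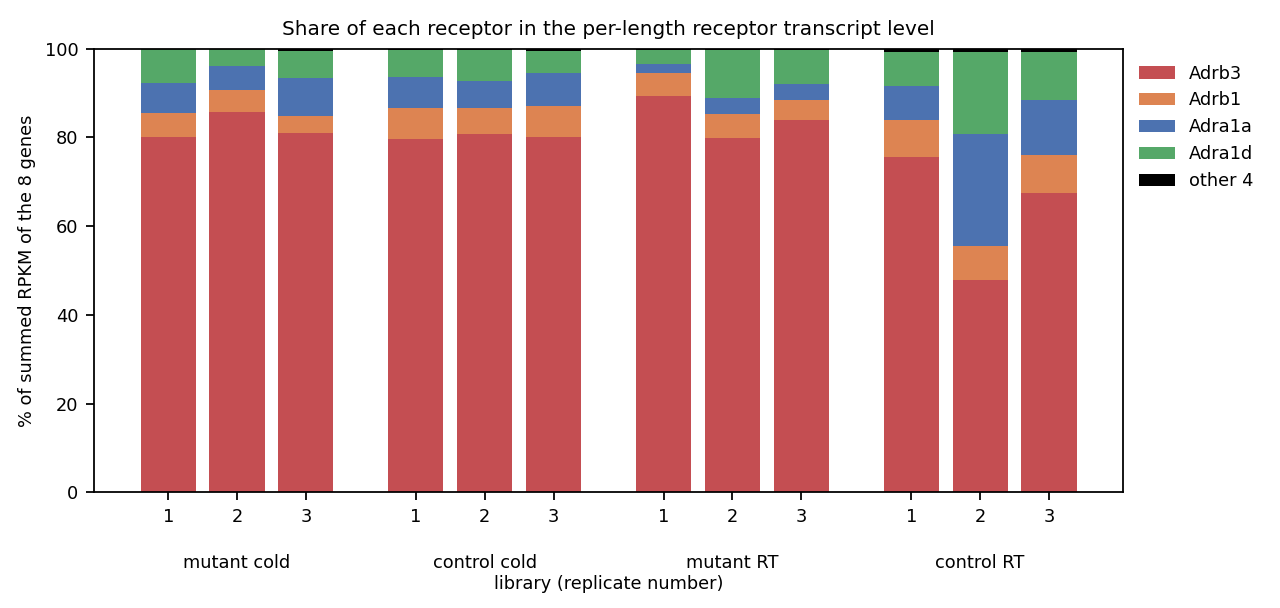
Share of each receptor gene in the summed RPKM of the 8 genes (percent), 1 stacked bar per library, grouped from mutant cold on the left to control RT on the right. Adrb3 takes 79.7% or more in 9 libraries and 47.8% to 75.6% in the 3 control RT libraries.

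The first comparison asked how receptor transcripts differed between mutant and control BAT at RT. Of the 8 receptors, 1 rose and 1 fell in mutant BAT, against 3.92% of all tested genes that rose and 2.32% that fell (6.24% called in all; edgeR adjusted p below 0.05). The median log2 fold change of the 8 receptors was 0.12, beside -0.04 over all tested genes. In 1 receptor every mutant library lay above every control library and in 2 every one lay below, against 12.9% and 11.9% of all tested genes.

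Adrb3 was the receptor that rose. It stood at 624.5, 362.0 and 367.3 CPM in mutant RT libraries, against 222.5, 115.5 and 172.4 CPM in control RT libraries. The lowest mutant value was above the highest control value. The means were 451.3 ± 150.0 and 170.1 ± 53.5 CPM (SD, n = 3 each), a log2 fold change of 1.41 ± 0.27 (SE; edgeR adjusted p = 0.0106). In whole tissue, more cells of a type cannot be told apart from more transcript per cell. The summed level of the 11 adipocyte markers was also higher in mutant RT libraries, at 43919.1 to 49814.8 CPM, against 29032.9 to 30077.6 CPM in control RT libraries, with 4 markers called higher and 0 lower; 7 had an unadjusted p below 0.05, and DESeq2 called 5 and limma-voom 6. Its part in the Adrb3 difference was not tested. The call was lost without control RT replicate 3 (1.42, adjusted p = 0.0519) and without the 4 muscle-rich libraries, with 1 control RT library left (2.10, adjusted p = 0.0802).

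Adra1a was the receptor that fell. It stood at 39.0, 43.5 and 42.2 CPM in mutant RT libraries, against 59.1, 157.7 and 82.2 CPM in control RT libraries. The mutant libraries lay close together and all below the control libraries, which were spread widely. The means were 41.6 ± 2.32 and 99.7 ± 51.5 CPM (SD, n = 3 each), a log2 fold change of -1.26 ± 0.27 (edgeR adjusted p = 0.018). The size of the difference depended on control RT replicate 2: without it the log2 fold change was -0.76 (adjusted p = 0.0178), and with it as the only control RT library (the muscle-rich ones left out) -1.93 (adjusted p = 0.00715). The call was lost without mutant RT replicate 1, 2 or 3 (-1.22, -1.30 and -1.27; adjusted p = 0.0611, 0.0676 and 0.0671) and when only the RT libraries were fitted (-1.27, adjusted p = 0.0994). The 12 vascular smooth muscle and pericyte markers, genes of cells in which alpha-1 receptors also act, were all above 0 in every library. They summed to 522.9, 447.4 and 716.1 CPM in mutant RT replicates 1, 2 and 3, against 1020.6, 577.6 and 977.1 CPM in control RT. The groups overlapped. Within each of the 4 groups, the libraries stood in the same order by this sum as by the sum of the skeletal muscle markers. Control RT replicate 2 was the control RT library lowest in both. How far the smooth muscle and pericyte sum follows skeletal muscle in the libraries was not tested. Of the 12 markers, 3 had a positive log2 fold change. Acta2 and Myh11 averaged 35.6 and 46.7 CPM in mutant RT, against 33.4 and 41.8 CPM in control RT libraries. For the whole list edgeR called 0, with 4 at an unadjusted p below 0.05, while DESeq2 called 2 and limma-voom 3. The part of these markers in the Adra1a difference was not tested.

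Within the control RT group the 2 receptors stood in opposite order. Replicate 2 had the lowest Adrb3 and the highest Adra1a, and replicate 1 the highest Adrb3 and the lowest Adra1a. The same libraries differed in muscle markers, which summed to 24780.1, 90.9 and 17536.2 CPM in control RT replicates 1, 2 and 3, against 1213.3, 71.3 and 20723.0 CPM in the mutant RT replicates. The ratio of Adrb3 to Adra1a in RPKM was 41.4, 21.5 and 22.5 in mutant RT libraries, against 9.73, 1.89 and 5.42 in control RT libraries. With the longest transcript as gene length these ratios were 24.5, 12.8 and 13.3 in mutant RT and 5.76, 1.12 and 3.21 in control RT libraries. On exon-union lengths, the ratio in the cold was 11.6, 15.6 and 9.6 in mutant libraries, against 11.4, 13.5 and 10.6 in control libraries. Mutant RT libraries thus all lay above the cold libraries, and control RT libraries all below the cold libraries except replicate 1, which was above mutant cold replicate 3.

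**Figure D3:**
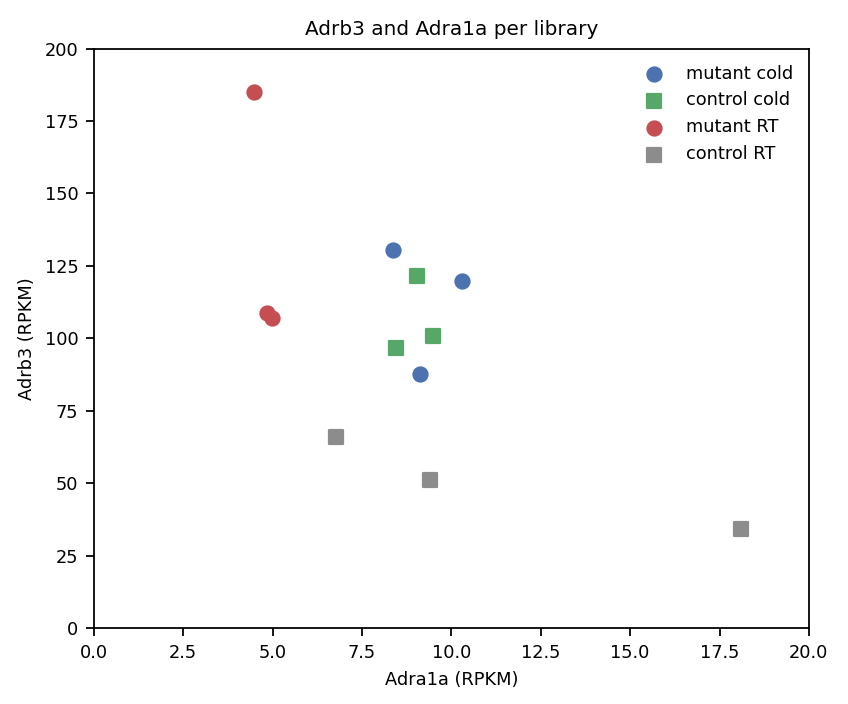
Adra1a (x axis) against Adrb3 (y axis) in RPKM on linear axes, 1 point per library, coloured by group, with circles for mutants and squares for controls. The mutant RT libraries sit at high Adrb3 and low Adra1a, the control RT libraries at low Adrb3, and the 6 cold libraries together between 87.6 and 130.5 RPKM of Adrb3.

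Adrb1, the other beta receptor, and Adra1d, the other alpha-1 receptor of the middle tier, did not pass the test at RT. Adrb1 stood at 36.6, 24.4 and 19.5 CPM in mutant RT libraries, against 24.3, 18.8 and 22.1 CPM in control RT libraries (log2 fold change 0.30 ± 0.25, edgeR adjusted p = 0.568). Adra1d stood at 12.7, 27.7 and 18.7 CPM in mutant RT libraries, against 12.6, 25.2 and 15.6 CPM in control RT libraries (0.15 ± 0.36, adjusted p = 0.877). Both pairs of groups overlapped.

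Adra2b, an alpha-2 receptor, was counted 4, 8 and 10 times in mutant RT libraries, against 26, 20 and 26 times in control RT libraries. The groups did not overlap. It averaged 0.234 ± 0.116 and 0.744 ± 0.0423 CPM (SD, n = 3 each), a log2 fold change of -1.67 ± 0.50 that missed the threshold in edgeR (adjusted p = 0.0755). DESeq2 (adjusted p = 0.0302) and limma-voom (adjusted p = 0.0260) called it, and over 15 alternatives the adjusted p ranged from 0.0260 to 0.414. The filter on low counts has a minimum count of 10, and in mutant cold libraries Adra2b was counted 8, 8 and 16 times. It thus passed the filter through the control libraries, where it stood higher. Adra1b was counted 32, 12 and 10 times in mutant RT and 18, 10 and 20 times in control RT libraries, Adra2a 18, 8 and 12 against 16, 0 and 8 times, and Adra2c 24, 14 and 12 against 26, 16 and 8 times. These 3 receptors overlapped between the groups. All 48 values of the 4 low receptors were even numbers, and 71.4% of all table values from 1 to 99 were even, against 50.7% of values of 1000 or more. The reason is not given in the sources used here, and low counts therefore cannot be read as independent molecules. Halving the counts left the number of called receptors as it was in all 5 comparisons. This does not settle how the even counts affect the low receptors. None of them was called in edgeR before halving, and Adra2a and Adra2c were not tested after it.

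The second comparison asked how mutant and control BAT differed after 1 week in the cold. Here edgeR called 0 of the 8 receptors, against 1.12% of all tested genes (0.727% higher and 0.393% lower). At an unadjusted p below 0.05 there was 1 receptor, Adra2c, which both DESeq2 and limma-voom called. The median log2 fold change of the 8 receptors was -0.03. No receptor lay wholly above the control libraries and 3 lay wholly below them (Adrb1, Adra2b and Adra2c), against 12.9% and 12% of all tested genes.

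Adrb3 stood at 404.5, 440.5 and 295.9 CPM in mutant cold libraries, against 326.9, 410.8 and 340.2 CPM in control cold libraries, and the groups overlapped (log2 fold change 0.08 ± 0.27, edgeR adjusted p = 0.912). Adra1a stood at 89.8, 73.0 and 79.7 CPM in mutant cold libraries, against 73.8, 78.8 and 82.8 CPM in control cold libraries (0.04 ± 0.27, adjusted p = 0.959). Neither receptor that was called at RT thus differed beyond its spread in the cold. The 11 adipocyte markers summed to 29131.3 to 40712.9 CPM in mutant cold, against 20167.6 to 23661.4 CPM in control cold libraries, without overlap. Of these markers 10 had a positive log2 fold change, with 1 called higher and 0 lower by edgeR, and the median was 0.29. Adipoq averaged 786.3 CPM in mutant cold and 768.4 CPM in control cold libraries. In the same order Fabp4 averaged 9829.9 and 9477.2 CPM, Plin1 1490.3 and 1241.1 CPM, and Lep 26.8 and 15.8 CPM. Most of the difference in the sum thus lay in the other markers. How this marker difference bears on the receptors was not tested.

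Adrb1 stood at 27.5, 25.2 and 14.7 CPM in mutant cold libraries, against 28.3, 30.1 and 29.6 CPM in control cold libraries. All mutant values lay below the control values, but the log2 fold change of -0.39 ± 0.25 did not pass the test (edgeR adjusted p = 0.486). Adra1d averaged 15.1 ± 5.78 CPM in mutant cold and 15.4 ± 4.28 CPM in control cold libraries (SD, n = 3 each; -0.03 ± 0.36, adjusted p = 0.974).

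Among the low receptors, Adra2c was counted 4, 6 and 6 times in mutant cold libraries, against 14, 18 and 30 times in control cold libraries. These values did not overlap. The log2 fold change was -2.12 ± 0.57 (edgeR adjusted p = 0.110; DESeq2 0.0336, limma-voom 0.0457). Adra2b was counted 8, 8 and 16 times in mutant cold libraries, against 20, 14 and 20 times in control cold libraries (-0.97 ± 0.49, edgeR adjusted p = 0.375). After scaling the groups did not overlap, at 0.261 to 0.412 CPM in mutant and 0.461 to 0.762 CPM in control cold libraries. Adra2a was counted 4, 4 and 42 times in mutant cold libraries, against 4, 6 and 6 times in control cold libraries, and Adra1b 4, 0 and 28 times, against 6, 12 and 8 times. For both genes, mutant cold replicate 3 stood high and the groups overlapped.

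**Figure D4:**
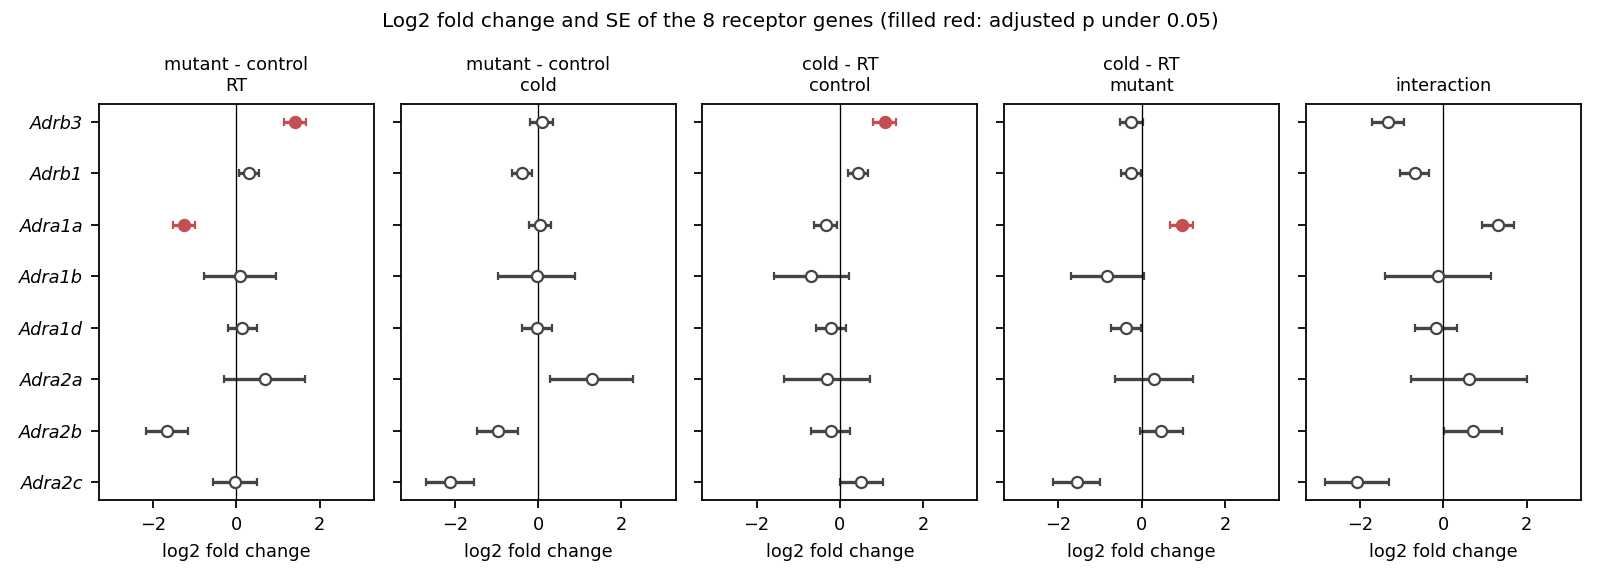
Log2 fold change of each receptor gene with its SE bar (edgeR, 12 libraries) in the 2 comparisons of genotype, the 2 of temperature and the interaction (mutant minus control response to cold); filled red points passed an adjusted p of 0.05. Adrb3 is filled at 1.41 (mutant over control, RT) and 1.08 (cold over RT, controls), and Adra1a at -1.26 (mutant over control, RT) and 0.96 (cold over RT, mutants).

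The response to cold was compared within each genotype. In controls 1 of the 8 receptors rose and 0 fell, against 4.31% of all tested genes that rose and 2.31% that fell (6.62% called in all). The riser was Adrb3, at 326.9, 410.8 and 340.2 CPM in control cold libraries, against 222.5, 115.5 and 172.4 CPM in control RT libraries. The groups did not overlap, and the log2 fold change was 1.08 ± 0.27 (edgeR adjusted p = 0.0368). The call was near the threshold: it was lost without control cold replicate 1, 2 or 3 (1.14, 0.95 and 1.11; adjusted p = 0.0822, 0.143 and 0.102) and without control RT replicate 2 or 3 (0.86 and 1.09; adjusted p = 0.101 and 0.111). It was also lost without the muscle-rich libraries, with 1 control RT library left (1.68, adjusted p = 0.150). Over 16 alternatives the sign was the same in 16 and the adjusted p was below 0.05 in 10. The 9 endothelial markers summed to 1135.1 to 1229.8 CPM in control cold and 745.3 to 1013.5 CPM in control RT libraries, with 2 called higher and 0 lower. The sum of the adipocyte markers was 20167.6 to 23661.4 CPM in control cold and 29032.9 to 30077.6 CPM in control RT libraries, with 0 of 11 called higher and 2 lower; 5 of the 11 had a positive log2 fold change. The part of either list in the Adrb3 difference was not tested. Adrb1 in controls stood at 28.3, 30.1 and 29.6 CPM in the cold, against 24.3, 18.8 and 22.1 CPM at RT. It too did not overlap, with a log2 fold change of 0.43 ± 0.25 that did not pass the test (adjusted p = 0.317). The 2 beta receptors were the only non-overlapping ones upward, against 18.9% of all tested genes, and none was wholly lower, against 14.4%. Adra1a in controls averaged 78.5 ± 4.47 CPM in the cold and 99.7 ± 51.5 CPM at RT (SD, n = 3 each; -0.34 ± 0.27, adjusted p = 0.470).

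In mutants 1 of the 8 receptors rose and 0 fell with cold, against 10% of all tested genes that rose and 7.42% that fell (17.4% called in all). Adra1a stood at 89.8, 73.0 and 79.7 CPM in mutant cold libraries, against 39.0, 43.5 and 42.2 CPM in mutant RT libraries. The groups lay far apart relative to their spread, with a log2 fold change of 0.96 ± 0.27 (edgeR adjusted p = 0.0300). The call was lost without mutant cold replicate 1 or 2 (0.87 and 1.01; adjusted p = 0.108 and 0.0591) and without mutant RT replicate 1, 2 or 3 (0.91, 0.99 and 0.96; adjusted p = 0.0854, 0.0837 and 0.0875). The endothelial markers summed to 1155.0 to 1211.2 CPM in mutant cold and 752.3 to 971.1 CPM in mutant RT libraries, with 3 of 9 called higher and 0 lower, and the smooth muscle and pericyte markers to 369.6 to 765.6 CPM in mutant cold and 447.4 to 716.1 CPM in mutant RT libraries. Their part in the Adra1a difference was not tested. Adrb3 in mutants averaged 380.3 ± 75.3 CPM in the cold and 451.3 ± 150.0 CPM at RT (SD, n = 3 each; -0.25 ± 0.27, adjusted p = 0.584). Adra2c was counted 4, 6 and 6 times in mutant cold and 24, 14 and 12 times in mutant RT libraries, without overlap (-1.56 ± 0.57, adjusted p = 0.0826). Adra1a upward and Adra2c downward were the non-overlapping receptors, against 16.7% and 16% of all tested genes. Adra1b in mutants (-0.82 ± 0.89, adjusted p = 0.580) was called by limma-voom (-2.51, adjusted p = 0.0336) and in edgeR without mutant cold replicate 3 (-2.89, adjusted p = 0.0440), and its adjusted p reached 0.865 over 15 alternatives.

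The genotype comparisons and the cold comparisons share libraries, so their values are not independent of each other. Whether the response to cold differed between genotypes was tested as an interaction, the mutant response minus the control response. edgeR called 0 of the 8 receptors, against 0.478% of all tested genes, while 3 had an unadjusted p below 0.05 and DESeq2 and limma-voom each called 2, Adrb3 and Adra1a. For Adrb3 the difference was -1.33 ± 0.38 on the log2 scale (edgeR adjusted p = 0.179; DESeq2 0.0274, limma-voom 0.0381; 0.0274 to 0.428 over all alternatives). For Adra1a it was 1.30 ± 0.38 (edgeR adjusted p = 0.187; DESeq2 0.0374, limma-voom 0.0308; 0.0291 to 0.385 over all alternatives). Adra1a was also called without control RT replicate 1 (1.57, adjusted p = 0.0291) and without the muscle-rich libraries, where control RT is replicate 2 alone, the library with the highest Adra1a (2.01, adjusted p = 0.0333). For Adra2c it was -2.08 (edgeR adjusted p = 0.302).

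Genes of signalling around these receptors are given as whole lists, and not every listed gene acts downstream of a receptor. The genes named from the lists kept their call when any single library was left out, except where a loss is given. Of 22 genes of the Gs and cyclic AMP machinery (Gs genes below, for short), 1 was higher and 1 lower in mutant than control BAT at RT. Of all tested genes, 3.92% were higher and 2.32% lower in this comparison. Of 24 genes of receptor desensitisation and cyclic AMP breakdown, 1 was higher and 3 lower. With the replicate number as a block these were 1 and 1, and Pde3a and Rgs2 missed at 0.068 and 0.0529. Pde3a and Rgs2 also lost their call without mutant RT replicate 1, 2 or 3 and without control RT replicate 2 or 3. The edgeR adjusted p then reached 0.172 for Pde3a and 0.183 for Rgs2. Pde4a, a phosphodiesterase that degrades cyclic AMP, fell by 1.25 ± 0.19 on the log2 scale in mutant RT libraries (edgeR adjusted p = 0.0036), at 29.5, 29.5 and 32.0 CPM, against 49.0, 87.3 and 80.1 CPM in control RT libraries. Pde3b, another phosphodiesterase, which insulin activates in adipocytes, rose by 0.77 ± 0.13 (adjusted p = 0.00536). Of 18 Gi and Gq genes 1 was higher and 2 lower, among them Gnao1, an inhibitory G protein alpha subunit (-1.21 ± 0.22, adjusted p = 0.00764). With the block these were 1 and 1, and Itpr2 missed at 0.0616. Itpr2 also lost its call without mutant RT replicate 1, 2 or 3 and without control RT replicate 2 or 3 (edgeR adjusted p up to 0.135). Of the 9 tested among 14 genes of noradrenaline synthesis and clearance edgeR called 0, with 1 at an unadjusted p below 0.05 and 1 called by DESeq2 and by limma-voom each.

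At RT, 3.92% of all tested genes were higher in mutants and 2.32% lower. Of the 8 lipolysis targets of protein kinase A, 4 were higher and 1 lower in mutant RT libraries. With the replicate block these were 4 and 0, and Plin5 missed at 0.0546. Plin5 also lost its call without each single RT library (edgeR adjusted p = 0.0548 to 0.171). Lipe, hormone-sensitive lipase, rose by 0.91 ± 0.15 and Plin1, a coat protein of the lipid droplet, by 0.93 ± 0.15 (edgeR adjusted p = 0.00514 and 0.00392). Of 13 genes that respond to cyclic AMP in thermogenic fat, 2 were higher and 1, Ucp1, lower. Ucp1 averaged 1307.8 ± 659.1 CPM in mutant RT and 4452.2 ± 1557.0 CPM in control RT libraries (SD, n = 3 each), a log2 fold change of -1.77 ± 0.39 (adjusted p = 0.0199). Ucp1 is named whatever its stability: its call was lost without mutant RT replicate 2 or 3 (adjusted p = 0.0824 and 0.0844) and without control RT replicate 2 or 3 (0.0654 and 0.0789). Elovl3, a fatty acid elongase, rose by 1.61 ± 0.27 and Sik1, a kinase induced by cyclic AMP, by 1.38 ± 0.18 (adjusted p = 0.00452 and 0.00141). Without the 4 muscle-rich libraries, with 1 control RT library left, Pde4a was called (-1.56, adjusted p = 0.0262). Pde3b, Gnao1, Lipe, Plin1, Ucp1, Elovl3 and Sik1 were not (adjusted p = 0.252, 0.0762, 0.247, 0.219, 0.195, 0.0645 and 0.128, in this order), with log2 fold changes of 0.68, -1.61, 0.78, 0.84, -2.03, 2.08 and 1.26. The median log2 fold changes of these lists at RT were -0.01 (Gs), 0.28 (Gi and Gq), -0.11 (desensitisation), -0.24 (noradrenaline), 0.52 (lipolysis) and 0.35 (cyclic AMP-responsive), beside -0.04 over all tested genes.

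After cold, edgeR called 0.727% of all tested genes higher and 0.393% lower in mutant than control BAT. It called 1 of 18 Gi and Gq genes higher and 0 in the other 5 lists. The gene was Plcb2, a phospholipase C (1.51 ± 0.30, adjusted p = 0.0377), named here although its call was lost without each single library of these groups (1.31 to 1.67, adjusted p = 0.0695 to 0.17), with the 2 groups alone (0.0629), with the replicate block (0.0672) and without the muscle-rich libraries (1.30, adjusted p = 0.186). At an unadjusted p below 0.05 there were 6 Gs genes, 3 desensitisation genes, 3 noradrenaline genes, 2 lipolysis genes and 8 cyclic AMP-responsive genes. DESeq2 called 1, 0, 1, 1 and 4 genes of these lists in that order, and limma-voom 1, 0, 1, 0 and 5.

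With cold, 5 of 13 cyclic AMP-responsive genes rose and 2 fell in controls (4 and 2 with the replicate block). Of all tested genes, 4.31% rose and 2.31% fell. Elovl3 rose by 4.80 ± 0.30 on the log2 scale (edgeR adjusted p = 3.32e-05), and Bmp8b, a secreted factor of brown fat, averaged 37.4 ± 5.34 CPM in control cold and 0.751 ± 0.973 CPM in control RT libraries (SD, n = 3 each; adjusted p = 0.00727). Nr4a3, an orphan nuclear receptor induced early by cyclic AMP, fell by 4.16 ± 0.54 (adjusted p = 0.00213). Ucp1 averaged 11932.5 ± 377.6 CPM in control cold and 4452.2 ± 1557.0 CPM in control RT libraries (SD, n = 3 each; log2 fold change 1.42 ± 0.39, adjusted p = 0.0492). The Ucp1 call was lost without each single library of these groups (1.16 to 1.62, adjusted p = 0.0729 to 0.132), with the replicate block (0.0722), with RLE size factors (0.0532), without the low-count filter (0.0574) and in the non-robust fit (0.0558). In the other lists of controls, 1 of 22 Gs genes rose, 2 of 24 desensitisation genes fell (with the block 1 rose and 3 fell) and 1 of 9 noradrenaline genes rose. The gene that rose in the list of Gs and cyclic AMP machinery was Adcy10, the soluble adenylyl cyclase (3.33 ± 0.39, edgeR adjusted p = 0.00143). It stands in the list as a gene of cyclic AMP and not of Gs. Without the muscle-rich libraries, with 1 control RT library left, Nr4a3 was at -3.94 (adjusted p = 0.126), Adcy10 at 2.97 (0.103) and Ucp1 at 1.08 (0.423). For the Gi and Gq list and the lipolysis list edgeR called 0, with 3 and 4 genes at an unadjusted p below 0.05, 1 and 4 called by DESeq2 and 3 and 5 by limma-voom.

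In mutants, 3 of 22 Gs genes rose with cold and 1 fell. Of all tested genes, 10% rose and 7.42% fell (17.4% called in all). Gnas, the Gs alpha subunit, rose by 1.62 ± 0.29 (edgeR adjusted p = 0.0031). It averaged 3794.4 ± 1100.7 CPM in mutant cold and 1232.2 ± 54.8 CPM in mutant RT libraries (SD, n = 3 each). Control libraries averaged 4833.5 ± 101.8 CPM in the cold and 3103.9 ± 1207.5 CPM at RT. At RT edgeR called Gnas lower in mutants. That call was lost without mutant RT replicate 1, 2 or 3 and without control RT replicate 2 or 3. Adcy3, an adenylyl cyclase, averaged 761.9 ± 185.0 CPM in mutant cold and 190.7 ± 32.0 CPM in mutant RT libraries (SD, n = 3 each; edgeR adjusted p = 0.000421). Of 24 desensitisation genes 4 rose and 2 fell, with Pde4a (1.36 ± 0.19) and Pde7b (1.5 ± 0.22) among the phosphodiesterases that rose and Pde1a (-1.59 ± 0.21) among those that fell. Of 18 Gi and Gq genes 1 rose and 1 fell, and of 9 noradrenaline genes 2 rose and 2 fell, among them Slc22a3, a transporter that clears catecholamines (-1.35 ± 0.24, adjusted p = 0.00258). Of 8 lipolysis genes 1 rose and 2 fell, the riser being Plin5, a droplet protein of oxidative tissue (1.11 ± 0.19, adjusted p = 0.00257). Of 13 cyclic AMP-responsive genes 4 rose and 4 fell, with Ucp1 up by 2.86 ± 0.41 and Elovl3 up by 4.09 ± 0.29, and Nr4a3 down (-3.20 ± 0.50). Bmp8b averaged 34.4 ± 14.1 CPM in mutant cold libraries and was at 0 in 2 of the 3 mutant RT libraries (edgeR adjusted p = 0.0007). The 11 adipocyte markers in these libraries summed to 29131.3 to 40712.9 CPM in mutant cold and 43919.1 to 49814.8 CPM in mutant RT, with 0 called higher and 6 lower, and their part in these changes was not tested.

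In the interaction test edgeR called 1 of 13 cyclic AMP-responsive genes, Sik1, lower, and 0 in the other 5 lists. Of all tested genes, 0.295% were called higher and 0.183% lower. The Gs, Gi and Gq, desensitisation, noradrenaline and lipolysis lists held 4, 3, 5, 5 and 3 genes at an unadjusted p below 0.05. DESeq2 called 2, 0, 0, 1 and 2 of their genes in that order, and limma-voom 3, 0, 4, 3 and 3.

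The genes whose profile over the 12 libraries was most like a receptor's were found by the root mean square difference of centred log2 CPM, among 12355 genes. Only receptors with a mean CPM of at least 1 were matched, so Adra1b, Adra2a, Adra2b and Adra2c were left out. For Adrb3, whose own SD over the libraries was 0.654, these were Ltc4s (0.252), Phlda3 (0.26) and Zdhhc13 (0.267). For Adra1a (SD 0.561) they were Ddhd1 (0.208), Cxadr (0.209) and Clip2 (0.221). For Adrb1 (SD 0.356) they were Pqbp1 (0.113), Adig (0.118) and Arpc3 (0.131), and for Adra1d (SD 0.453) Sergef (0.251), Tmem170 (0.277) and Zfp217 (0.283). Adrb1 had the closest matches.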

How the data were processed

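The deposited table holds raw read counts per gene symbol for the 12 libraries, made by the authors. Reads were aligned to mm9 with STAR and counted with featureCounts, per the submitters' processing notes; the sources used here do not give versions, annotation, strand setting or read-pair handling. Per the labels' protocols, libraries were made with a NEBNext Ultra kit.

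From the counts, genes were filtered with filterByExpr (minimum count 10, minimum total 15) and scaled by TMM, and the 4 groups were fitted together with edgeR 4.0.16 (robust quasi-likelihood F-test) in R 4.3.3. P-values were adjusted by Benjamini-Hochberg over all 15265 genes and called below 0.05. DESeq2 1.42.0 and limma 3.58.1 (voom with quality weights) served as alternatives, beside other size factors and filters, the 2 groups alone, a non-robust fit, each library left out and the 4 muscle-rich libraries left out; halved counts were added after the data were seen. The fit was tested on simulated data.

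RPKM is CPM per kilobase of the exon union in GENCODE M21 (GRCm38), a different build from that of the counts, so lengths are approximate. Depth was 25835650 to 37927038 counts; the 3-count floor covers counting error only.

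The receptors and gene lists were chosen with earlier results of these data known. From each pathway list, up to 2 called genes per direction with the largest change were eligible to be named; of these, the text names those that kept their call without any single library, a restriction made after their values were seen, and others only with their lost calls. Ebf2 and Ucp1 are always named. Replicates differed by more than sampling noise (chi-square per degree of freedom 38.2 to 234). Same-numbered libraries deviated together in mutant and control at RT (correlations 0.165, 0.719 and 0.488) and in control cold and control RT (0.142, 0.647 and 0.456), but not in every pair of the other comparisons; no label ties a number to a litter or day.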

Additional observations from a re-analysis of the deposited data

Results flagged for a closer look

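Sik1, a kinase gene induced by cyclic AMP, was the 1 gene of the pathway lists that edgeR called for a response to cold that differed between the genotypes; DESeq2 called 3 and limma-voom 4 of the 13 cyclic AMP-responsive genes, and both called genes of other lists. The mutant response minus the control response was -1.86 ± 0.25 on the log2 scale (edgeR interaction test, adjusted p = 0.0103). Sik1 averaged 74.0 ± 14.2 CPM in mutant cold, 103.6 ± 20.4 in control cold, 99.4 ± 12.4 in mutant RT and 38.2 ± 4.7 in control RT libraries (SD, n = 3 each). Without the 4 muscle-rich libraries, which leaves 1 control RT library, the difference was -1.83 (adjusted p = 0.185).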

How the results depend on the processing

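Over 644 values of single receptors under alternatives, 0 reversed a call, 12 passed the threshold only in the alternative and 17 lost it. At RT, 2 receptors were called, against 3 with DESeq2 and 3 with limma-voom, which both added Adra2b. The number was 1 when only the 2 groups were fitted and 1 to 2 with single libraries left out. Mutant against control in the cold gave 0, 1 with DESeq2, 1 with limma-voom and 0 to 0 with single libraries left out. Cold against RT gave 1 in controls (0 without the muscle-rich libraries, 0 to 1 leaving out single libraries) and 1 in mutants (2 with limma-voom, 0 to 2 leaving out single libraries). The interaction gave 0, against 2 with DESeq2, 2 with limma-voom, 1 without the muscle-rich libraries and 0 to 1 leaving out single libraries. Leaving out the 4 muscle-rich libraries leaves 1 control RT library, so lost calls there also reflect fewer libraries; other causes were not tested. The mean Adrb3 share in control cold was 77.6% with the longest transcript as length; with single libraries left out the shares ranged from 80.4% to 83.3% in mutant cold, 79.8% to 80.4% in control cold, 81.9% to 86.6% in mutant RT and 57.6% to 71.5% in control RT.

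With the replicate number as a block (replicate block), called receptors numbered 2 (RT), 0 (cold), 1 (controls), 1 (mutants) and 0 (interaction), as without it; Adrb3 at RT was 1.39 (adjusted p = 0.0114), Adra1a -1.21 (0.0278), and Adrb3 in controls with cold 1.12 (0.0314). Over all genes the block gave 34 interaction calls against 73. In the pathway lists it ended named calls of Itpr2, Pde3a, Plin5 and Rgs2 at RT, Plcb2 in the cold, Ucp1 in controls and Lipe and Maoa in mutants. Counts of all genes called depended on the tool and on the muscle-rich libraries: at RT 952, against 1699 (DESeq2), 2844 (limma-voom), 552 (2 groups) and 129 (without muscle-rich); in the cold 171, against 745, 1119, 102 and 18 in that order; in controls 1010, against 2008 (DESeq2), 3402 (limma-voom) and 13 (without muscle-rich); in mutants 2663, against 5075 (limma-voom), 1633 (2 groups) and 1218 (without muscle-rich); for the interaction 73, against 443 (DESeq2), 1121 (limma-voom), 48 (non-robust fit) and 26 (without muscle-rich). Depth limits Adra1b, Adra2a, Adra2b and Adra2c, at 0 to 42 counts per library.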
